A study of Mus musculus with 12 samples.

Results

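Cells of the embryonic mouse ventral spinal cord that carried the Hb9:GFP reporter were compared, across all genes, with cells sorted from the same tissue without GFP. The comparison used all 12 RNA-seq libraries of the series, of which 10 were GFP-positive and 2 were GFP-negative, and tested 19032 of 30740 gene symbols, those with enough counts in at least 2 libraries. All embryos were on the CB6F1/J background, were taken at E12.5 and carried the Hb9:GFP reporter, which is driven by the promoter of Mnx1 (also called Hb9). Knockout embryos lacked Arhgap35, which encodes p190. Control embryos were their littermates, either wild-type or p190+/-. The groups were 5 control GFP-positive, 5 knockout GFP-positive, 1 control GFP-negative and 1 knockout GFP-negative library, and tissue was pooled before it was dissociated with papain and sorted. The negative side therefore has 1 library per genotype, and its own spread could not be measured. Genotype was a covariate in every fit unless stated, and the residual spread came from the GFP-positive libraries and from the difference between the negative libraries. The labels name the cell type of both fractions as motor neuron, and nothing in them ties replicates to separate litters, so the p-values below describe only how far these libraries vary. Libraries held 23.7 to 33.8 M estimated counts, with 24098 to 24947 genes detected in each, and the negative libraries lay within these ranges at 26.5 and 28.7 M.

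Spinal motor neurons arise from ventral progenitors that express Olig2, leave the cell cycle, and switch on the homeodomain proteins Mnx1, Isl1 and Isl2. They release acetylcholine, and they are the only neurons of the cord whose main axons leave it to reach muscle and autonomic ganglia. At this stage the GFP-negative cells of the same tissue can include dividing progenitors, ventral and dorsal interneurons, early glial precursors, vessels and blood.

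The marker genes separated the fractions in every library. Mnx1 (chromosome 5, 29473034 to 29478470, GRCm38) was measured at 229.6 CPM in the lowest, 245 in the median and 315 in the highest GFP-positive library, where CPM is the count relative to a library total of 1e6 after scaling between libraries. In GFP-negative cells it was at 0.509 CPM (control) and 0.438 CPM (knockout). The groups did not overlap, and the log2 fold change was 9.04 (standard error 0.195, edgeR adjusted p = 8.11e-12). Since the sort uses a reporter under the promoter of this gene, the Mnx1 value checks the sort and is not a finding. Isl2 (chromosome 9, 55538672 to 55546180), a partner of Mnx1 in motor neuron specification, stood at 51.8, 61.4 and 77.1 CPM in the lowest, median and highest positive library and at 0.170 and 0.183 CPM in the negative ones. Its log2 fold change was 8.43 (standard error 0.299).

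Chat, the enzyme that makes acetylcholine (chromosome 14, 32408203 to 32465989), stood at 72.6, 86.4 and 97.2 CPM in positive libraries, given as lowest, median and highest here and below. It stood at 0.882 and 1.32 CPM in the control and knockout negative libraries (log2 fold change 6.27, standard error 0.167). Slc18a3, the vesicular acetylcholine transporter (chromosome 14, 32462438 to 32464850), lies within Chat on the same strand and stood at 234, 256 and 291 CPM against 4.61 and 4.13 CPM (log2 fold change 5.89, standard error 0.123). Prph, the intermediate filament peripherin of neurons with peripheral axons (chromosome 15, 99055174 to 99058978), stood at 341, 453 and 599 CPM against 3.22 and 3.25 CPM (log2 fold change 7.13, standard error 0.331). No library of one fraction reached the range of the other for any of the 5 markers. All 5 markers were still detected in the negative libraries. Isl1, which some dorsal interneurons and sensory neurons also express, stood at 26.5 and 25.9 CPM in the negative fraction. Its levels in positive libraries were 253, 312 and 366 CPM. Which cells the Isl1 transcripts of the negative fraction came from was not tested. In bulk RNA, fewer cells of a type and less RNA per cell cannot be told apart.

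**Figure D1:**
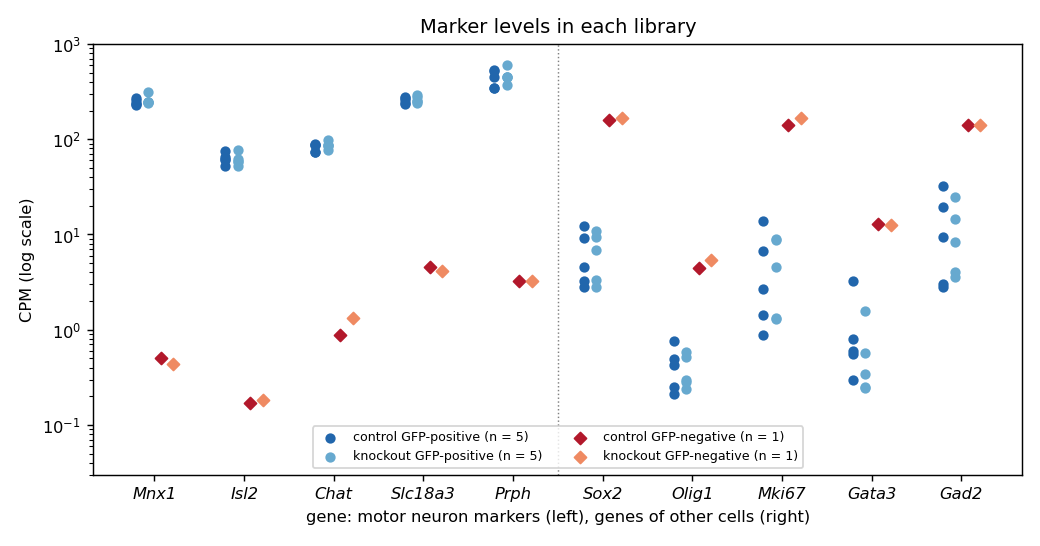
CPM of 10 genes (x axis) in each of the 12 libraries, on a log scale (y axis). Circles are GFP-positive and diamonds GFP-negative libraries. The 5 motor neuron markers on the left lie apart by 5.89 to 9.04 on the log2 scale, and the 5 genes of other cells on the right are lower in all 10 positive libraries but spread widely among them.

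Transcripts of other cells were lower in the positive fraction but varied between its libraries. For the dorsal interneuron list the replicate numbers fell in the same order in both genotypes. The 20 genes of this list, which also holds genes of dorsal progenitors, summed to 882 and 831 CPM in the control and knockout negative libraries. In positive control libraries 1 to 5 they summed to 126, 73.9, 26.4, 45.9 and 26.0 CPM, and in knockout libraries 1 to 5 to 97.2, 60.6, 37.3, 40.3 and 24.8 CPM, which is 2.89 to 14.7% of the negative mean. Gad2, an enzyme that makes the inhibitory transmitter GABA, stood at 19.4, 9.52, 2.81, 32.1 and 3.05 CPM in the control and at 14.6, 8.38, 4.04, 24.9 and 3.59 CPM in the knockout positive libraries. Number 4 was thus the highest for Gad2 and number 1 for the dorsal list, while numbers 3 and 5 were low for both. The 52 mitosis genes summed to 273 to 501 CPM in positive and to 2297 and 2706 CPM in negative libraries, and the 12 erythroid genes to 5.20 to 51.7 CPM against 237 and 339 CPM. No gene of these lists was at 0 in all positive libraries, and the part that such transcripts have in the differences below was not tested.

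Most of the genes tested differed between the fractions. At an adjusted p under 0.05, 5928 genes were higher in GFP-positive cells (31.1% of those tested) and 6202 were lower (32.6%), while 6902 were not called. The counts given for each gene list below are to be read beside these shares. With a change of at least 2-fold as well, 2416 were higher (12.7%) and 1977 were lower (10.4%). The median log2 fold change over all genes was 0.01, which the scaling between libraries sets near 0. With library size as the only scaling it was -0.04, and 5487 genes were higher and 6678 lower. All 10 positive libraries lay above both negative ones for 5694 genes and below both for 6163, and 652 of the 12130 called genes overlapped. A test against a 2-fold change, in place of one against no change, called 1549 genes higher and 1362 lower.

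Each genotype gave the comparison on its own, with 5 libraries against 1. In control cells 4487 genes were higher and 4461 lower, and in knockout cells 4744 were higher and 5163 lower. Over the 18756 genes tested in both, the 2 sets of log2 fold changes had the same sign for 16670 (88.9%), with a median absolute difference of 0.114. A test of whether the difference between fractions depended on genotype called 5 genes, all unnamed gene models (AK166824, Gm13414, B930095G15Rik, Gm4750 and AK089373). Each was listed at 0 in 1 of the 2 negative libraries. No named gene passed, and 329 genes had an unadjusted p under 0.05.

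**Figure D2:**
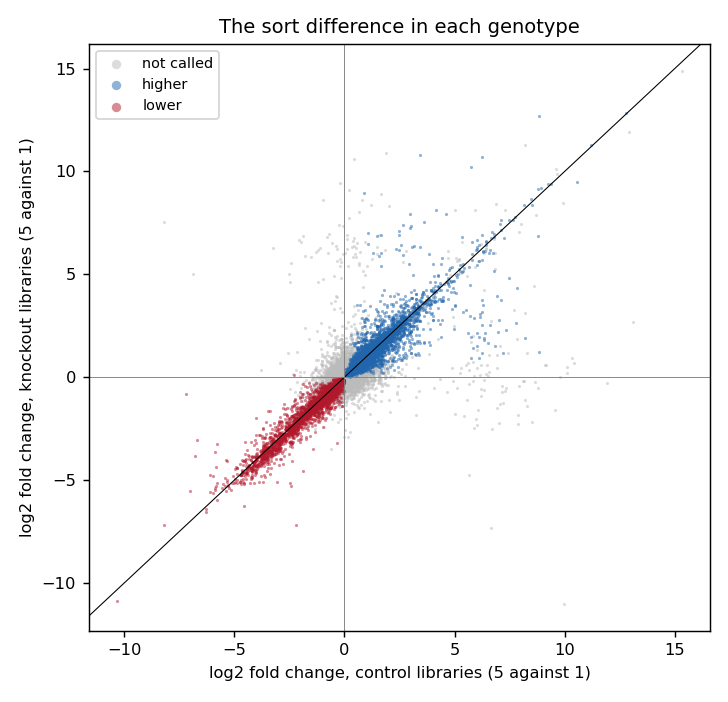
Log2 fold change of GFP-positive over GFP-negative cells in the control libraries (x axis) and in the knockout libraries (y axis), 1 point per gene, coloured by the call over all 12 libraries. Over all 18756 genes tested in both, 88.9% have the same sign in both; called genes were chosen on both genotypes together, so their place along the diagonal is a description.

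By abundance, calls of any size were most frequent among abundant genes, and changes of at least 2-fold among genes of low to middle level. Genes were classed by the mean of both group levels on the scale log2(CPM + 0.5). In the class under 0, 19.4% of 2123 genes were higher and 8.81% lower, and nearly all of these passed 2-fold (18.3 and 8.05%). From 0 to 2, 16.4% of 4442 genes were at least 2-fold higher and 14.8% at least 2-fold lower, and from 2 to 4 these shares were 16.2 and 16.5% of 3521 genes. In the class from 6 to 8, 38.4% of 3369 genes were higher and 43.2% lower, but only 5.94 and 5.52% passed 2-fold. Among the 584 genes at 8 and over, 42.1% were higher and 42.1% lower, and 8.73% were at least 2-fold higher against 3.42% at least 2-fold lower. The median standard error of the log2 fold change fell from 0.481 in the lowest class to 0.049 in the highest. The smallest calls therefore come where counts are deepest. The balance of directions within a class depends on how genes are classed. By the mean over all 12 libraries, 13.1% were higher and 18% lower in the class under 0. At 8 and over, these shares were 52.4 and 32.8%.

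**Figure D3:**
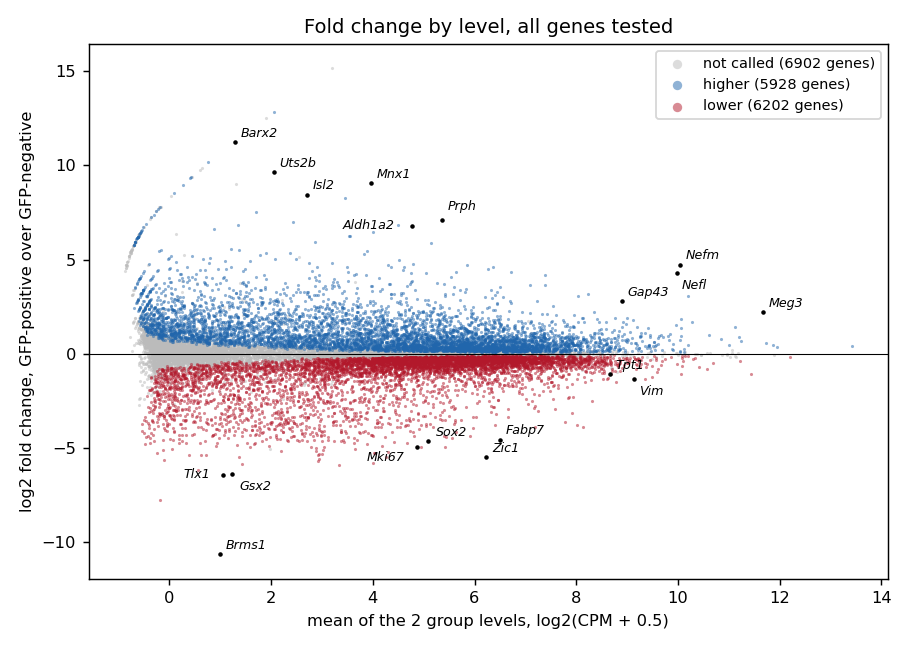
Log2 fold change (y axis) by the mean of the 2 group levels (x axis) for the 19032 genes tested. Blue genes were higher and red genes lower at an adjusted p under 0.05. The arcs at the upper left are genes at 0 or a few counts in the negative libraries, whose fitted values are not measured folds.

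The transcript pool shifted with these calls. Genes called higher held 44.0% ± 1.33 of the summed TPM in positive libraries (SD, n = 10), against 27.2 and 26.9% in the control and knockout negative libraries, where TPM is a share of transcripts that allows for gene length. Genes called lower held 32% ± 1.10 against 48.4 and 48.8%. The at least 2-fold higher genes held 11.8% ± 0.817 against 3.53 and 3.47%, and the at least 2-fold lower genes held 2.53% ± 0.275 against 8.71 and 8.89%. These shares rest on the same libraries that chose the genes and are a description. Of the 100 genes with the highest mean TPM in each fraction, 69 were shared. Ribosomal protein symbols, counted with processed copies such as Rpl31-ps8 and Rps6-ps4, took 13 places in the positive and 25 in the negative fraction.

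**Figure D4:**
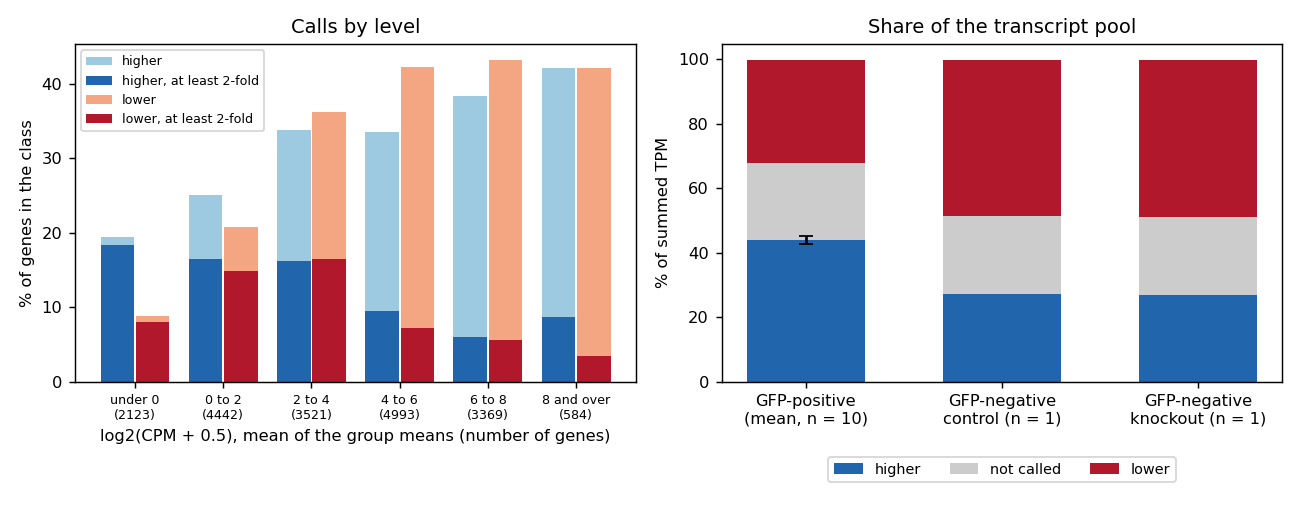
Left, the percent of genes called higher (blue) and lower (red) in 6 classes of the mean of both group levels. The darker shade is the part that changed at least 2-fold. Right, the share of the summed TPM held by genes called higher, not called and called lower, 44.0, 23.7 and 32% in positive libraries; the bar shows the SD over 10 libraries for the higher genes.

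The most abundant genes gained included several of the axonal cytoskeleton. Ranked by TPM in positive cells, the first 10 genes called at least 2-fold higher were Meg3, the unnamed model AK155692, Nefm, Nefl, Rian, Tubb2a, Gap43, Stmn2, Uchl1 and Ina. Nefm, the medium neurofilament subunit, stood at 3721 ± 321 TPM in positive cells (SD, n = 10) and at 137 and 139.6 TPM in the negative libraries. Its CPM were 4505, 5447 and 6022 against 203 and 208 (log2 fold change 4.72, standard error 0.133). Nefl, the light subunit, stood at 3012 ± 257 TPM against 157 and 144 TPM (log2 fold change 4.29, standard error 0.131). Meg3 and Rian, long noncoding RNAs of 1 imprinted locus, stood at 5523 ± 739 and 2997 ± 192 TPM, against 1322 and 1367 TPM for Meg3 and 887 and 912 TPM for Rian. All 5 neuronal filament genes were called higher (median 4.29 on the log2 scale, beside 0.01 for all genes). The heavy subunit Nefh, at 28.9 ± 5.35 TPM, was far less abundant than the other subunits but had a similar log2 fold change of 4.24, while Ina rose by 1.00.

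Of 34 genes for axonal microtubules and growth cones, 28 were higher and 4 lower, with a median of 0.78. Sncg, which encodes gamma-synuclein, stood at 396, 464 and 548 CPM against 23.4 and 23.4 CPM (log2 fold change 4.32, standard error 0.153). Gap43, a growth cone protein, stood at 1120, 1276 and 1366 CPM against 179 and 184 CPM (log2 fold change 2.79, standard error 0.0882). Exceptions were Nrn1, which encodes the extracellular protein neuritin, with a log2 fold change of -2.71, and Marcks, an actin-binding kinase substrate, with -0.99. Among 28 transport genes 20 were higher and 3 lower, but the median was only 0.38. The largest rise was that of Dync1i1, an intermediate chain of cytoplasmic dynein, at 16.2, 23.0 and 28.5 CPM against 1.36 and 1.42 CPM (log2 fold change 4.04, standard error 0.239). The neuronal kinesin heavy chain Kif5a rose by 1.70 on the log2 scale, while Kif5b, its ubiquitous relative, fell by 0.26.

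Transcription factors of motor neurons changed in both directions. Of 19 identity factors tested, 10 were higher and 7 lower. Isl1 had a log2 fold change of 3.56, and Lhx4, a LIM-homeodomain factor of early motor neurons, stood at 149, 166 and 241 CPM against 19.0 and 16.8 CPM (log2 fold change 3.26, standard error 0.204). The 7 lower factors included Ebf3 (-2.30), Ebf2 (-2.01) and Sox11 (-1.09), which many newly born neurons express. Beyond the list, the homeobox gene Barx2 was measured at 9, 11.5 and 13.6 CPM in positive cells and had no count in either negative library. Taken against 3 counts in each negative library, it was at least 108-fold higher. Irx6, an Iroquois homeobox gene, stood at 10.5, 17.0 and 23.3 CPM against 0.0339 and 0.146 CPM (log2 fold change 7.55, standard error 0.551).

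Genes of motor columns and pools were mostly gained. Of 23 tested, 16 were higher and 5 lower, with a median of 1.72. Aldh1a2, the retinaldehyde dehydrogenase that marks limb-innervating motor neurons, stood at 175, 269.8 and 332 CPM against 2.27 and 2.41 CPM (log2 fold change 6.79, standard error 0.316). Etv4, an ETS factor of limb motor pools, stood at 46.6, 91.7 and 106 CPM against 0.950 and 1.24 CPM (log2 fold change 6.25, standard error 0.554). Nos1, the neuronal nitric oxide synthase found in preganglionic motor neurons, rose by 3.70, and Foxp1, a determinant of limb and preganglionic columns, by 2.19 on the log2 scale. The 5 lower members include Lhx1 (-2.53), a LIM-homeodomain factor that several interneuron classes also express.

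Hox genes changed in both directions. Of 37 tested, 9 were higher and 24 lower, with a median of -1.51. The largest falls were in the Hoxb cluster: Hoxb9 stood at 21.5, 55.1 and 137 CPM in positive cells against 998 and 913 CPM (log2 fold change -3.77, standard error 0.582), and Hoxb8 at 23.5, 54.1 and 122 CPM against 802 and 729 CPM (-3.61). Like Gad2, Hoxb9 was highest in positive libraries of numbers 4 and 1, at 137 and 119.7 CPM in control and 117 and 96.4 CPM in knockout cells. The rises were among genes with higher paralogue numbers, which pattern the caudal cord. Hoxa11 stood at 21.3, 24.2 and 36.9 CPM against 1.76 and 2.81 CPM (log2 fold change 3.46, standard error 0.274), and Hoxc12 at 7.49, 16.2 and 30.3 CPM against 0.373 and 0.658 CPM (5.04, standard error 0.940). Hoxc13 ranged from 0.205 to 31.3 CPM in positive libraries, and its adjusted p of 0.0424 missed the threshold under 14 of 33 alternatives. Hoxb13 was listed at 0 in both negative libraries and reached 6.73 CPM in 1 positive library, and was not called.

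Of 8 cholinergic genes, 6 were higher and 2 lower. Slc5a7, the high-affinity choline transporter, stood at 151, 218 and 245 CPM against 2.07 and 1.64 CPM (log2 fold change 6.85, standard error 0.245). The lower members were Slc44a1 (-0.25), a choline transporter of many cell types, and Gata2 (-3.37), a zinc finger factor of V2b interneurons. Among secreted peptides, 13 of 23 genes were higher and 5 lower. Vgf, a granin-like precursor, stood at 21.1, 32 and 36.9 CPM against 1.19 and 1.35 CPM (log2 fold change 4.60, standard error 0.285), and Scg2, secretogranin, rose by 3.72. Uts2b, a peptide of the urotensin family, stood at 25.7, 30.7 and 38.9 CPM in positive cells and had 2 counts in the control and 0 counts in the knockout negative library. Its relative Uts2 stood at 2.29 to 3.80 CPM, and Calcb, which encodes a calcitonin gene-related peptide, at 1.33 to 3.80 CPM. Neither had a count in a negative library, so Uts2 was at least 28.2-fold and Calcb at least 22.5-fold higher. Npy, neuropeptide Y, was lower, with a log2 fold change of -1.96.

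Release machinery rose broadly but by modest amounts. Of 40 synaptic vesicle genes 38 were higher and 1 was lower, with a median of 1.00, which is 2-fold. The largest rises were Syt2, the fast calcium sensor of motor terminals, at 68.2, 87.8 and 108 CPM against 9.23 and 7.85 CPM (log2 fold change 3.39, standard error 0.197), Cplx1 (2.95) and Stx1a (2.50). The lower gene was Sypl (-0.44), a synaptophysin relative found outside neurons. Of the 40 genes, 15 remained called higher in the test against a 2-fold change.

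Channels and receptors followed the same direction. Of 72 potassium channel genes 48 were higher and 8 lower (median 1.04), and of 35 voltage-gated sodium and calcium channel genes 25 were higher and 3 lower (median 0.84). Kcnab1, an auxiliary subunit of voltage-gated potassium channels, stood at 70.2, 78.1 and 90.4 CPM against 1.87 and 2.19 CPM (log2 fold change 5.28, standard error 0.140). Cacna1e, the pore of R-type calcium channels, rose by 3.57, and the sodium channel subunit Scn9a by 3.36 on the log2 scale. The lower potassium channel genes included Kcnj10 (-3.38), a glial inward rectifier, and Kcnk5 (-4.85). All 18 ionotropic glutamate receptor genes were called, 16 higher and 2 lower. Grin2a, which encodes a receptor subunit usually described for mature neurons, stood at 5.96, 8.51 and 11.1 CPM against 0.441 and 0.292 CPM (log2 fold change 4.52, standard error 0.309), and the obligate subunit Grin1 rose by 2.14. The kainate receptor genes Grik2 (-0.90) and Grik3 (-0.72) were lower.

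Receptors for inhibitory transmitters were gained while the genes that make those transmitters were lost. Of 18 GABA and glycine receptor genes 17 were higher and 1 was lower, with a median of 1.69. Gabra5 stood at 12.6, 17.3 and 20.4 CPM against 1.83 and 1.97 CPM (log2 fold change 3.17, standard error 0.192). Glra1, the adult glycine receptor subunit, was the lower one, at -1.92. Of 9 genes for glutamate, GABA or glycine release 8 were lower and none higher, among them Gad2 (-3.53), the glycine transporter Slc6a5 (-3.52) and the vesicular transporter Slc32a1 (-3.50). Of 14 acetylcholine receptor genes 7 were higher and 1 lower, led among those named here by the muscarinic receptors Chrm2 (2.74) and Chrm3 (2.40).

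Guidance genes split evenly. Among 40 receptors 16 were higher and 18 lower (median -0.00), and among 38 ligands 16 were higher and 17 lower (median -0.06). Over all genes tested, 31.1% were higher and 32.6% lower. Nrp1, the semaphorin co-receptor, stood at 358, 385 and 459.5 CPM against 55.9 and 58.1 CPM (log2 fold change 2.79, standard error 0.0858), and the netrin receptors Unc5c and Unc5d rose by 2.31 and 1.98. Robo3, the receptor of commissural axons that cross the floor plate, stood at 13.0, 39.2 and 208 CPM against 1031 and 1045 CPM (log2 fold change -3.86, standard error 0.865). Boc, a co-receptor for Sonic hedgehog, fell by 4.70 and the ephrin receptor Ephb4 by 3.70. The Robo3 call was lost in control libraries alone, without the knockout negative library and with the 4 libraries of number 1, and its largest edgeR adjusted p over these fits was 0.135.

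Motor neurons also gained guidance ligands. Sema3c stood at 308, 366 and 405 CPM against 15.5 and 16.1 CPM (log2 fold change 4.5, standard error 0.0955), and Sema3d at 9.15, 14 and 17.6 CPM against 0.339 and 0.365 CPM (5.23, standard error 0.390). Slit3, a Robo ligand, stood at 131, 136 and 164 CPM against 7.02 and 7.42 CPM (4.27, standard error 0.0997). Ntn1, the floor plate and progenitor attractant netrin-1, fell by 3.35. Of 29 trophic factor and chemokine receptors 10 were higher and 12 lower, beside 31.1% higher and 32.6% lower over all genes tested. Ret, the GDNF family receptor, stood at 342, 408 and 462 CPM against 16.1 and 16.5 CPM (log2 fold change 4.63, standard error 0.142), its co-receptor Gfra3 rose by 3.98 and the neurotrophin receptor Ngfr by 3.06. Cxcr4 (-4.07), Erbb2 (-4.15) and Fgfr3 (-3.88) were lower. Ntf3, which encodes neurotrophin-3, was itself higher, at 28.6, 36.6 and 41.6 CPM against 0.238 and 0.329 CPM (log2 fold change 6.99).

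Surface and matrix genes changed member by member. Of 34 neuronal adhesion genes 26 were higher and 5 lower (median 1.11), led by the cadherins Cdh9 (4.41) and Cdh6 (3.40) and by Alcam (3.19), while Cntn2, the contactin of commissural axons, fell by 1.49. Among 53 clustered protocadherin genes 30 were higher and 3 lower. The rises were largest in the alpha cluster, with Pcdha7 at 2.70 and Pcdha4 at 2.50. Alpha members share their last exons, so estimated counts could be split between them. Of 38 collagen genes 13 were higher and 18 lower, beside 31.1% higher and 32.6% lower over all genes tested. The chains of collagen VI rose together, Col6a3 by 4.58, Col6a2 by 3.82 and Col6a1 by 2.75, and Col6a2 stood at 22.4, 30.8 and 41.1 CPM against 2.54 and 1.86 CPM. Col4a5 (-4.35) and Col2a1 (-3.73) fell. In the mesenchyme list, which holds Col6a1, 3 of 14 genes were higher and 7 lower, and its sum was 54.3 to 90.6 CPM in positive against 238 and 244 CPM in negative libraries.

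Retinoid, BMP and Id genes changed in both directions. Of 25 tested, 12 were higher and 13 lower. Besides Aldh1a2, the retinol transporter Stra6 rose by 4.17 and Cyp26b1, which degrades retinoic acid, by 2.70 on the log2 scale, with Stra6 at 42.5, 56.7 and 76.2 CPM against 3.29 and 3.07 CPM. The BMP receptor Bmpr1b fell by 3.31.

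Division genes were mostly lower. All 52 mitosis genes were lower, 51 of them at least 2-fold, with a median log2 fold change of -3.54 beside 0.01 for all genes. Mki67, the proliferation antigen Ki-67, stood at 0.890, 3.61 and 13.9 CPM against 142 and 168 CPM (log2 fold change -4.93, standard error 0.696). Ccnb1, the mitotic cyclin B1, stood at 0.460, 1.88 and 7.72 CPM against 66.4 and 76.6 CPM (-4.80, standard error 0.661). Their levels in positive libraries moved with the replicate number, as the mitosis sum did, and were highest in control library 1. Of 49 DNA replication genes 47 were lower and none higher, with a smaller median of -1.65. Mcm3, part of the replicative helicase, fell by 4.71 and the licensing factor Cdc6 by 3.74. Of 30 genes of cell cycle entry and exit 22 were lower and 6 higher. Ccnd1 (cyclin D1) stood at 4.48, 8.41 and 22.7 CPM against 217 and 218 CPM (-4.47). Inhibitors of cell cycle kinases changed in both directions: Cdkn1a, which encodes p21, rose by 1.90, while Cdkn1c (-2.52) and Cdkn2c (-4.65) fell.

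The promoters of these genes share letters that are described for genes switched on in mitosis. A cell cycle homology element, TTTGAA, binds the MuvB complexes that repress such genes in resting cells, and CCAAT boxes bind NF-Y. In RefSeq windows of 250 bases before and 50 after the start (GRCm38.p6), for genes with 1 window and counting either strand, TTTGAA occurred in 30 of 41 mitosis genes (73.2%), in 11.9% of 9432 genes tested and in 18.5% of all 22862 windows. CCAAT occurred in 70.7% of the mitosis genes, in 63.6% of the DNA replication genes and in 39.1% of genes tested, and both together in 61.0% and 5.08%. Genes at least 2-fold lower held TTTGAA in 16.4% and those at least 2-fold higher in 11.6%. The 33 DNA replication genes held TTTGAA in 9.09%, but the E2F letters TTTGGCGC or TTTCGCGC in 24.2%, against 1.48% of genes tested. A match is only a description of the letters, and no binding was measured.

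The 250 bases before the start are shown for the 3 mitosis genes with the largest falls among those that hold both elements there, Mki67, Cdk1 and Top2a, with TTTGAA and CCAAT in capitals on either strand (TTCAAA and ATTGG on the other). Cdk1, the mitotic kinase, had a log2 fold change of -4.58, and Top2a, the DNA topoisomerase of dividing cells, of -4.43. The same stretch of Mnx1, the gene whose promoter drives the reporter, is shown in lower case for comparison. It holds no TTTGAA but 3 CCAAT, as many as Mki67 and Cdk1, which are left in lower case. All 4 genes lie on the minus strand.
Mki67, chr7:135716380-135716629: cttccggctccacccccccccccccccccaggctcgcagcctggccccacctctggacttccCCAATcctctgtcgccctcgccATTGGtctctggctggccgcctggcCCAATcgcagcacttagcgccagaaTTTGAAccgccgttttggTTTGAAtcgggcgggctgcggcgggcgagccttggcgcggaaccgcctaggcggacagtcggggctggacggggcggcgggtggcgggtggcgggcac
Cdk1, chr10:69352913-69353162: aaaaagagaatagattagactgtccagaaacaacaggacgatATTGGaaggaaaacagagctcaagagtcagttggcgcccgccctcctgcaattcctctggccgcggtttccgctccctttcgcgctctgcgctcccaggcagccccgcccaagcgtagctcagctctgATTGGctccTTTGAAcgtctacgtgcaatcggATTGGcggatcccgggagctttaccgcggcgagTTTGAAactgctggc
Top2a, chr11:99024190-99024439: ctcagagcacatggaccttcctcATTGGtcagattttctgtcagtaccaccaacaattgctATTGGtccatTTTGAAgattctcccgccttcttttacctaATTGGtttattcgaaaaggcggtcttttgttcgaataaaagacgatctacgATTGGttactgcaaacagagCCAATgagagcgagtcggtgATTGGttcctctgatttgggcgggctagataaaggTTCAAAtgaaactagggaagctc
Mnx1, chr5:29478471-29478720: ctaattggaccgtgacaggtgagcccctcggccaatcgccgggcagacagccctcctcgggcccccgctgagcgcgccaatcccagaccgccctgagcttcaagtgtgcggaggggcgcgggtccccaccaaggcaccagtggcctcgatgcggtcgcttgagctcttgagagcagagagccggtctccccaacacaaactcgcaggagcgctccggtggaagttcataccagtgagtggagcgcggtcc

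Progenitor genes fell with the division genes. Of 35 tested, 30 were lower and 4 higher, with a median of -3.36. Sox2, the neural stem cell factor, stood at 2.81, 5.72 and 12.4 CPM against 161 and 167 CPM (log2 fold change -4.65, standard error 0.453), and Olig1, of the motor neuron progenitor domain and its glial progeny, at 0.209, 0.360 and 0.765 CPM against 4.44 and 5.41 CPM (-3.60). Fabp7, the lipid-binding protein of radial glia, fell from 1102 and 1310 TPM to 52.5 ± 30.0 TPM (SD, n = 10), and the intermediate filament gene Vim from 1311 and 1366 TPM to 563 ± 26.2 TPM. Members that rose included the matrix protein gene Tnc (2.53). Proneural genes showed the same: 24 of 25 were lower, among them Neurog1, at 0.169, 0.417 and 1.59 CPM against 8.79 and 8.77 CPM (-4.04). The exception was Neurod1, which rose by 0.98.

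Signalling pathways of the ventricular zone were lower in most members. Of 24 Notch genes 20 were lower and 4 higher, with the target Hes5 at -5.03, the glycosyltransferase Lfng at -4.61 and the receptor Notch1 at -4.35. Notch1 stood at 5.13, 12 and 24 CPM against 264 and 266 CPM. The ligand gene Jag2 rose by 1.54 and Dtx1, a Notch regulator, by 0.96. Of 15 Hedgehog genes 11 were lower and 2 higher. The transcription factors Gli2 (-4.62) and Gli3 (-4.57) fell, and the ligand gene Shh, at 6.11, 7.19 and 7.84 CPM against 2.07 and 2.45 CPM, rose by 1.64. Of 30 Wnt genes 21 were lower and 4 higher. The receptor Fzd10 stood at 0.297, 2.27 and 6.79 CPM against 118 and 116 CPM (-5.47), and Wls, needed to secrete Wnt proteins, fell by 3.67, while the secreted modulators Rspo2 (3.40) and Dkk1 (3.05) rose.

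Factors of interneurons and of dorsal progenitors were among the largest falls. All 20 genes of the dorsal interneuron list were lower (19 with replicate number as a block), each at least 2-fold, with a median of -4.36. That list also holds genes of dorsal progenitors, such as Gsx2. In the ventral interneuron list 20 of 24 were lower, with a median of -3.12. Tlx1, a homeobox gene of dorsal excitatory neurons, stood at 0, 0.0419 and 0.212 CPM against 6.65 and 7.31 CPM (log2 fold change -6.42, standard error 0.484), and Gsx2, of dorsal progenitors, at 0, 0.0829 and 0.255 CPM against 8.55 and 8.69 CPM (-6.37, standard error 0.546). The Zic genes of the dorsal cord followed, from Zic4 (-5.80) to Zic2 (-5.37), and Zic1 ranged from 1.27 to 24.5 CPM in positive libraries against 507 and 477 CPM. In the ventral list Gata3, of V2b neurons, stood at 0.245, 0.557 and 3.28 CPM against a mean of 12.7 CPM (-3.96). Skor1, another member of that list, fell by 4.17.

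**Figure D5:**
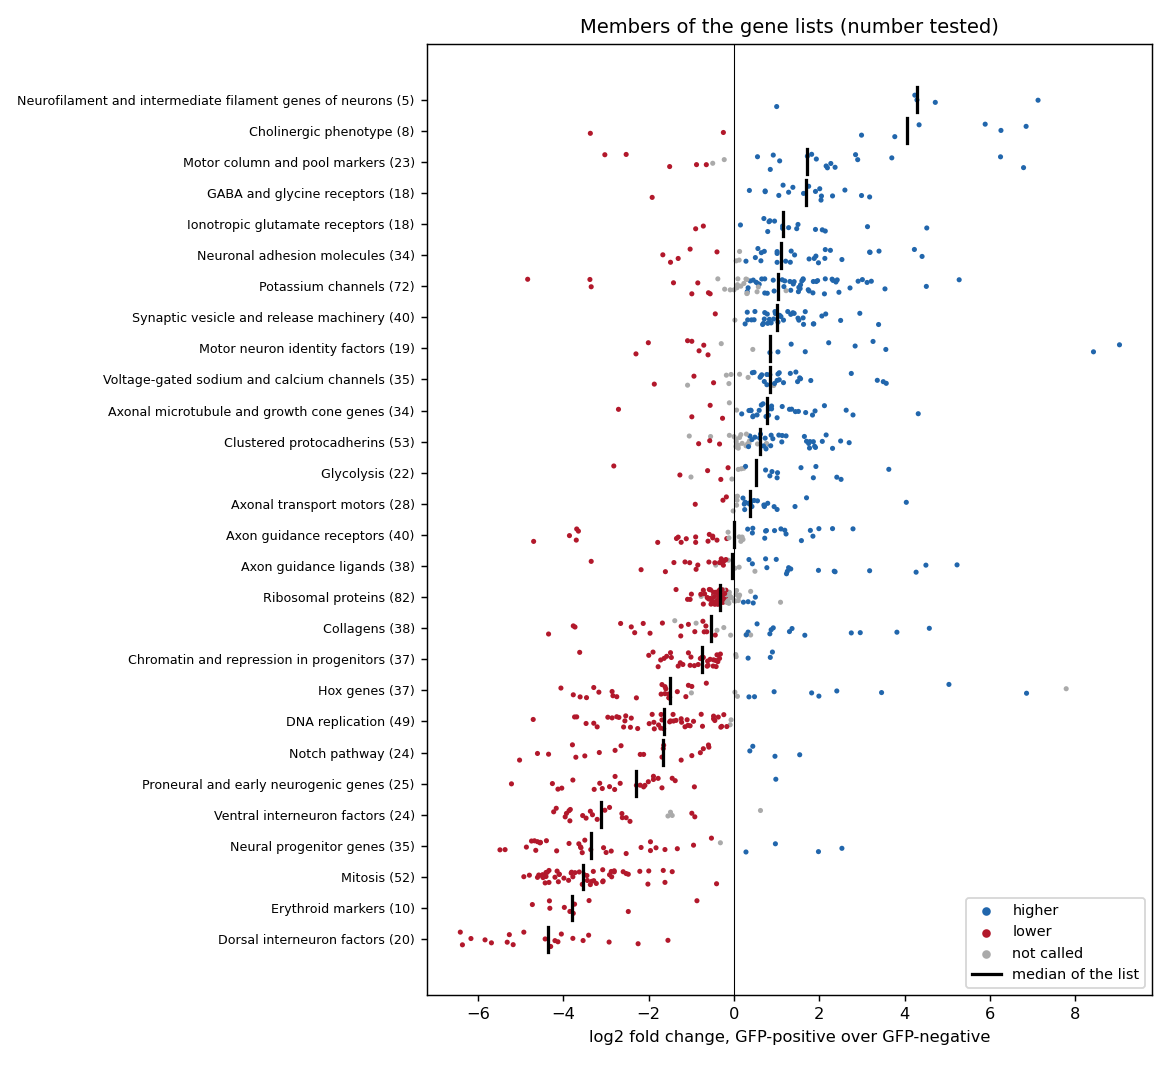
Log2 fold change (x axis) of each tested member of 28 gene lists (y axis, number tested in brackets), coloured by call, with the list's median as a black bar. Medians of the filament, cholinergic, channel and transmitter receptor lists lie to the right of 0, and those of the dorsal interneuron, erythroid, mitosis and progenitor lists to the left.

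Markers of blood and microglia were lower in the positive fraction, as were some of vessels, while muscle markers changed in both directions. All 10 erythroid genes tested were lower (9 with replicate number as a block), with a median of -3.81, and Hbb-bh1, an embryonic globin, stood at 0.0418 to 0.336 CPM against 3.87 and 5.81 CPM. All 7 microglial genes tested, of 15 listed, were lower, with Csf1r at -2.56, and 5 were with replicate number as a block. The 15 genes summed to 1.47 to 4.84 CPM in positive and to 14.8 and 13.5 CPM in negative libraries. Since the filter asked for enough counts in only 2 libraries, such genes could pass it through the negative libraries alone. The shared direction of the erythroid and microglial genes tested is therefore a description. Of 16 endothelial genes 8 were lower and none higher. Their sum was 8.28 to 26.9 CPM in positive and 24.4 and 29.6 CPM in negative libraries, so knockout library 2, with 26.9 CPM, reached the negative range. Of 8 skeletal muscle genes tested 4 were higher and 2 lower, with a median of 0.72. The skeletal muscle list summed to 7.72 to 9.44 CPM in positive and 8.18 and 8.15 CPM in negative libraries, which overlap.

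Chromatin and translation genes shifted less per gene but in many members. Of 37 chromatin genes tied to progenitors 32 were lower and 3 higher, with a median of -0.75. Hmgb2, a chromatin protein of dividing cells, fell by 3.63 and the helicase gene Hells by 1.90, while Ezh1 (0.85) and Chd5 (0.90), the forms described for postmitotic neurons, rose. Of 82 ribosomal protein genes 57 were lower and 4 higher, with a median of -0.34. Rpl29 stood at 93.1, 135 and 179.6 CPM against 274 and 278 CPM (-1.03), and Rpl15 rose by 0.50. Ribosomal protein genes have many processed copies, so their estimated counts are uncertain, as are those of Tpt1, which fell by 1.07 beside its copy Tpt1-ps3.

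Pairs of related genes exchanged places in several pathways. Among 22 glycolysis genes 12 were higher and 5 lower. The hexokinase gene Hk2 fell from 12.9 and 14.7 CPM to 1.19, 1.63 and 4.75 CPM (-2.82), while Hk1 rose by 1.57. The glucose transporter Slc2a1 fell by 1.28, and Slc2a3, the neuronal one, rose by 2.41. Pfkp, the platelet-type phosphofructokinase, stood at 416, 600.4 and 693 CPM against 45.7 and 49.1 CPM (3.63, standard error 0.200). Eno2, the neuronal enolase, rose by 1.86, and Eno1 was not called at 0.17 (edgeR adjusted p = 0.245). Among chromatin remodelling subunits Actl6a fell by 1.45 and its neuronal partner Actl6b rose by 0.45. The splicing repressor Ptbp1 fell by 1.49, but Ptbp2, which replaces it in young neurons, fell too, by 0.51. Of 24 cholesterol synthesis genes 14 were higher and 1 lower, and none changed 2-fold.

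Of 32 genes linked to motor neuron disease 16 were higher and 9 lower, with a median of 0.23. Over all genes tested, 31.1% were higher and 32.6% lower. Chchd10, a mitochondrial protein, rose by 2.21 and the autophagy receptor Optn by 1.87, with Optn at 12, 14.5 and 19.3 CPM against 3.94 and 4.27 CPM. Chmp2b, of the endosomal sorting machinery, fell by 1.53. Smn1, the gene of spinal muscular atrophy, stood at 19.2, 20 and 21.4 CPM against 31.9 and 31.5 CPM and fell by 0.66 (standard error 0.0535). The groups did not overlap for any of these 4 genes, which also holds for 11478 of the 12130 genes called.

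Few genes were close to all or none. In 9 named genes every positive library reached 1 CPM while neither negative library had more than 3 counts: Barx2, Uts2b, Uts2, Calcb, Slc17a4, Tnfaip8l3, Ankrd33b, Slc35d3 and Myh15. Slc17a4, a sodium and phosphate transporter, stood at 2.68 to 3.68 CPM, had no count in the negative libraries and was at least 29.7-fold higher. In the opposite direction 3 named genes met the same rule: Brms1, Tfap2e and Wnt8b. Brms1 was listed at 0 in all 10 positive libraries and stood at 6.31 and 8.69 CPM in the negative ones, at least 64.6-fold lower in positive cells. Wnt8b stood at 1.22 and 1.10 CPM in negative libraries and at no more than 0.0816 CPM in a positive one. Each of these values is limited by depth, since 3 counts correspond to 0.0891 to 0.127 CPM. They also rest on estimated counts, and the part that the assignment of reads to symbols has in a 0 was not tested.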

How the data were processed

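RNA from sorted Hb9:GFP-positive and GFP-negative ventral cord cells was read as 50-base single ends from a kit that does not keep strand, per the labels' protocols. The authors deposited 2 kinds of value for each gene symbol: an estimated count (expected count), unscaled, and TPM. The submitters' processing notes name kallisto, without a version, and mm10; the step from transcripts to symbols is not stated. Of the deposited estimated counts 39.2% are whole, and deposited TPM columns total 974800 to 1018241.

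Estimated counts were rounded, filtered with filterByExpr by sort (2 libraries in the smaller group), scaled by TMM and fitted with genotype and sort as terms in edgeR 4.0.16 (robust quasi-likelihood test, under R 4.3.3). Benjamini-Hochberg adjustment covered all 19032 genes at a threshold of 0.05. The code was tested on simulated data. A GFP-negative library that stands alone in a fit is taken to vary as the replicated groups do. Floors of 3 counts cover counting error only. No pair of libraries was a duplicate: chi-square over degrees of freedom ran from 8.59 to 26.6.

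Replicate numbers pair the GFP-positive libraries: control and knockout residuals of numbers 1 to 5 correlated at 0.505, 0.389, 0.209, 0.331 and 0.388. What a number stands for is not stated, and the pairing of the GFP-negative libraries could not be checked.

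The members, lists and families were chosen with earlier results of these data known, so lists are given as counts and medians with no test. A written rule picked the genes to name: the markers; the 12 largest changes per direction at 5 CPM or more without overlap of libraries, leaving out unnamed models; the 10 highest in TPM per direction past 2-fold; up to 3 called members per list and direction at 2 CPM or more; paralogue pairs; interaction genes; and the 5 transcription factors of the lists with the largest changes per direction. Nefh, Uts2, Hoxb13, Cdk1, Top2a, Ankrd33b, Slc35d3, Myh15, Tfap2e and Wnt8b lie outside it and were picked with their values in view. Alternatives covered scaling, filters, designs, DESeq2 1.42.0, voom and log2 TPM (pseudocounts 1 and 0.1) in limma 3.58.1, each genotype alone, a replicate block and left-out libraries. Positions come from GENCODE M21 and promoter windows from RefSeq (GRCm38.p6), found by symbol as a single window for 9432 tested genes. Some results are not reported here.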

Additional observations from a re-analysis of the deposited data

Results flagged for a closer look

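In 29 of 486 groups of 5 GFP-positive libraries (5.97%) 1 library stood far from the other 4, which chance alone gives in about 1 in 20 groups. Control library 1 was that library in 11 groups and knockout library 1 in 5. Control library 1 had the largest total of its group, 30.2 M estimated counts, and the most genes with a count, 24630. It was the highest of its group for the summed mitosis list (501 CPM), Ccnb1 (7.72 CPM), Ccnd1 (22.7 CPM), Gata2 (2.92 CPM), Gata3 (3.28 CPM), Hoxb1 (2.39 CPM), Hoxa11 (36.9 CPM) and Hk2 (2.75 CPM), and the lowest for Slc5a7 (151 CPM). Knockout library 1 was the highest of its own group for Gata2 (2.33 CPM), Gata3 (1.58 CPM) and Hoxb1 (0.591 CPM), and the lowest for Sema3d (9.15 CPM) and Jag2 (83.1 CPM). Gata2, Gata3 and Hoxb1 were thus highest in number 1 of both genotypes. All 3 remained below both negative libraries.

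Knockout library 3 was the highest of its group for Mnx1 (315 CPM), Lhx4 (241 CPM), Slit3 (164 CPM) and Glra1 (6.65 CPM). Knockout library 2 was the highest for Hoxb13 (6.73 CPM), Hk2 (4.75 CPM) and the globin gene Hbb-bt (2.6 CPM). Knockout library 5 was the highest for Gabrg3 (6.47 CPM), Optn (19.3 CPM) and the summed skeletal muscle list (9.41 CPM). Among controls, Unc5d was highest in library 2 (79.6 CPM), Grik2 in library 4 (40.3 CPM) and Col6a3 in library 5 (8.77 CPM).

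The edgeR test of an interaction between fraction and genotype called 5 unnamed gene models, with 1 negative library in each arm. It called 1 gene with a replicate block and 0 without control GFP-positive library 5, so a dependence on genotype was not shown. The difference of log2 fold changes, knockout minus control, was -7.67 for AK166824 and -9.67 for Gm13414, which were listed at 0 in the control negative library. It was 10.14 for B930095G15Rik, 9.58 for Gm4750 and 8.03 for AK089373, which were listed at 0 in the knockout negative library. These sizes rest on a 0 in a single library and are no measured folds.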

How the results depend on the processing

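The number of genes called moved by less than 1.5 times under the other scalings, filters, tools and designs, except where a 2-fold change was required: 2416 higher and 1977 lower passed the adjusted p with a 2-fold change, and 1549 and 1362 the test against 2-fold. With a replicate block 5306 genes were higher and 5642 lower, and leaving out 1 library at a time gave 4840 to 6002 higher and 5097 to 6270 lower. Leaving out both GFP-positive libraries of 1 number, an alternative added after seeing the data, gave 5750 to 6003 and 5913 to 6250. The 5 genotype-dependent genes became 2 with DESeq2, 1 with the replicate block and 0 to 6 when 1 GFP-positive library was left out.

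Classing genes by the mean of all 12 libraries gave 13.1% higher and 18.0% lower in the class under 0, 23.4 and 22.1% from 0 to 2, 43.2 and 38.6% from 6 to 8, and 52.4 and 32.8% at 8 and over, so the balance of directions within a class depends on that choice. On the CPM scale genes called higher held 50.0% and lower 30.9% of the positive libraries' sum, and those past 2-fold 14.8 and 2.82%. Of 223 called genes examined singly, 204 kept their call under every alternative in which they were tested. Another 19 lost it under at least 1, most of them with control libraries alone, and none reversed. The test against a 2-fold change was not among the alternatives for single genes. Among genes named above these 19 include Hoxc13, Hoxc12, Robo3, Gad2, Slc6a5, Slc32a1, Skor1, Neurod1, Pcdha4, Chd5, Slc44a1 and Rpl29; the cause was not tested. Depth limits the genes near 0, where 3 counts are the floor.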
